A study of Mus musculus with 24 samples.

Results

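A set of 10 transcripts that mark choroid plexus epithelium or red blood cells was followed in hippocampus and cortex of mice with and without apolipoprotein D (ApoD), a lipid carrier of the lipocalin family. They were listed by Ensembl gene ID, 6 for choroid plexus (Ttr, ENSMUSG00000061808; Kl, ENSMUSG00000058488; Folr1, ENSMUSG00000001827; Kcne2, ENSMUSG00000039672; Clic6, ENSMUSG00000022949; and Prlr, ENSMUSG00000005268) and 4 for blood (Hbb-bs, ENSMUSG00000052305; Alas2, ENSMUSG00000025270; Hba-a1 and Hba-a2), to show whether tissue or blood of these kinds was carried into the dissected pools. Of the 10 IDs, 8 had a row among the 23879 gene IDs of the table used here, and the alpha-globin genes Hba-a1 and Hba-a2 were not analysed here. The symbols are those of the member list, since the reference table used here holds 0 Ensembl IDs.

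The samples were 24 arrays in 8 groups of 3, from male C57BL/6J mice that lacked ApoD (ApoD-KO, KO) or were wild type (WT), at 655 days (old) or 100 days (young). The groups were hippocampus KO old, KO young, WT old and WT young, and cortex KO old, KO young, WT old and WT young. Each array carried pooled RNA of 2 to 3 mice, so p-values reflect the spread between pools. The labels' protocols describe decapitation and slicing of the regions in cold PBS, and name no perfusion step. Values are log2 signals with array medians of 7.31 to 7.42. Neither gene lists for neighbouring tissues nor regional markers could be matched to the IDs, so the dissected regions were not checked against such markers. The genotype labels were checked with ENSMUSG00000022548, which lay between 7.88 and 8.29 log2 on the 12 KO arrays and between 11.63 and 12.66 on the 12 WT arrays, although no table used here ties this ID to Apod. Replicate 1 of young KO hippocampus stood apart: over the tested IDs its distance from the group mean (root mean square) was 0.161 log2, against 0.124 for the next array, replicate 2 of the same group. Results whose call or sign this array changes are given with and without it.

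The choroid plexus is the folded epithelium inside the brain ventricles that secretes cerebrospinal fluid. It lies against the hippocampus in the lateral ventricle, and brain dissections often carry some of it along. Its epithelial cells make transthyretin in very large amounts, which makes Ttr a sensitive marker of carried-over choroid plexus. Red cells and reticulocytes hold globin messenger RNA, so globin transcripts in brain tissue are used to follow residual blood, although neurons and glia can also make some beta-globin.

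The bases before the transcription start are shown for Hbb-bs and Alas2, whose signals varied together, and for Kl, which differed most between the regions. They come from RefSeq on build GRCm38.p6, where 7 of the 10 members had an entry in the table used, and give 250 bases 5′ to 3′ in the direction of the gene. The Hbb-bs window is chr7:103827929-103828178 on the minus strand, the Alas2 window chrX:150547167-150547416 on the plus strand and the Kl window chr5:150952357-150952606 on the plus strand. Capitals mark, on either strand, AGATAA, a form of the site of GATA factors, and CCNCNCCC, a form of the site of KLF factors, in Hbb-bs and Alas2, and GGGCGG, a form of the Sp1 site, in Kl.
Hbb-bs: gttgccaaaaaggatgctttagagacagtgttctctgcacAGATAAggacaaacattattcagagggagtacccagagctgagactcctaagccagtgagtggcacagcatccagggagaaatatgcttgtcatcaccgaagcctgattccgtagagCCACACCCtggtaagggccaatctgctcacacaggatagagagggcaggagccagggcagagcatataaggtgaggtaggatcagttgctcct
Alas2: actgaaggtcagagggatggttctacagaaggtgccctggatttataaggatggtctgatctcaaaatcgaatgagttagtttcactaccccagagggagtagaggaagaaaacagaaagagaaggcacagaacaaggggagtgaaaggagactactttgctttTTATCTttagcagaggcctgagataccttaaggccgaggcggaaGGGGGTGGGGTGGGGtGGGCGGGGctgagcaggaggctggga
Kl: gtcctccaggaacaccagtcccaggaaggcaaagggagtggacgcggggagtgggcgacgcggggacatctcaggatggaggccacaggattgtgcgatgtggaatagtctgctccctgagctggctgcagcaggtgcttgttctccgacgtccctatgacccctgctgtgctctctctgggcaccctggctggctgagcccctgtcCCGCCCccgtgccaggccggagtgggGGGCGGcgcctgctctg
AGATAA matched once in each of the red cell windows, and it was found in 9.99% of the 32851 promoter windows of the same length. CCNCNCCC matched at 1 place in Hbb-bs and at 4 places in Alas2, which overlap one another in part, and 45.9% of all windows held it. No base was shared between these 2 motifs. GGGCGG matched at 2 places in Kl, against a share of 32.7% of all windows holding it. The Kl window had a GC content of 66.8% with 13 CpG dinucleotides, that of Hbb-bs 50.8% with 2 and that of Alas2 51.2% with 4. Each motif was marked only in the genes named for it. The Alas2 window also holds GGGCGG and the Kl window CCNCNCCC, so these motifs are not particular to the genes they are marked in. A match describes the letters of the window and does not show a bound site.

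Of the 8 members, Kl, Hbb-bs and Alas2 were bright enough to be tested in the main fit, which took the 14327 IDs whose mean exceeded 6.63 log2, the 40th percentile. Ttr, Folr1, Kcne2, Clic6 and Prlr, 5 members, had means from 5.37 to 6.30 log2 and lay below it. For these 5 the values come from the same limma fit to all 23879 IDs with no filter, and the background signal of the arrays is unknown, so their true folds may be larger than the measured ones. In these bulk samples, fewer cells of a type and less RNA per cell cannot be told apart.

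Ttr, the carrier of thyroid hormone and retinol-binding protein in cerebrospinal fluid, was at a low signal on nearly all arrays. In hippocampus, old KO pools had 6.72, 6.58 and 7.53 log2, young KO pools 6.25, 6.19 and 6.23, old WT pools 6.46, 6.49 and 6.52, and young WT pools 6.05, 6.72 and 6.64. In cortex, old KO pools had 5.94, 5.98 and 6.18, young KO pools 6.09, 5.89 and 6.13, old WT pools 6.26, 6.10 and 6.18, and young WT pools 5.87, 6.11 and 6.14. Replicate 3 of old KO hippocampus was the highest of the 24 arrays, 0.88 log2 above the mean of the other old KO hippocampus pools, and replicate 1 of young WT hippocampus was 0.63 log2 below the mean of its group's other pools (-0.63). The hippocampus and cortex arrays overlapped.

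Averaged over genotype and age, Ttr was higher in hippocampus than in cortex by 0.46 log2 (SE 0.088, 1.38-fold, limma adjusted p = 0.00018 with no filter). The difference ranged from 0.39 to 0.51 log2 when each array was left out in turn, and it stayed past the threshold in all 24 of these fits. By group it was 0.91 log2 in old KO (limma adjusted p = 0.00053), 0.19 in young KO (adjusted p = 0.520), 0.31 in old WT (adjusted p = 0.290) and 0.43 in young WT (adjusted p = 0.085). Without replicate 3 of old KO hippocampus the old KO difference was 0.62 log2, and the young WT difference had an adjusted p of 0.012. Without replicate 1 of young WT hippocampus the young WT difference was 0.64 log2 (limma adjusted p = 0.0097).

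Kl encodes klotho, a membrane protein and co-receptor for FGF23, made by choroid plexus epithelium and also by some neurons. Of the members it had the largest difference between regions. Its level lay between 8.71 and 9.06 log2 on the 12 hippocampus arrays, with a median of 8.88, and between 6.34 and 6.80 on the 12 cortex arrays, with a median of 6.64, so the regions did not overlap. Hippocampus exceeded cortex by 2.13 log2 in old KO (4.37-fold, limma adjusted p = 1.4e-14), by 2.36 in young KO (5.14-fold, adjusted p = 1.8e-15), by 2.18 in old WT (4.54-fold, adjusted p = 8.8e-15) and by 2.45 in young WT (5.48-fold, adjusted p = 8.2e-16). The SE was 0.083 log2 in each, and the average was 2.28 log2 (SE 0.042). The young KO difference was 2.41 without replicate 1 of young KO hippocampus.

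Prlr, the prolactin receptor, was higher in hippocampus than in cortex at low signal. It lay between 5.41 and 5.60 log2 on the hippocampus arrays and between 5.16 and 5.29 on the cortex arrays, with no overlap. Old KO pools had 5.60, 5.53 and 5.51 log2 in hippocampus and 5.23, 5.23 and 5.28 in cortex. Young KO pools had 5.54, 5.44 and 5.55 in hippocampus and 5.29, 5.16 and 5.21 in cortex. In WT, the old pools had 5.56, 5.53 and 5.51 in hippocampus and 5.26, 5.20 and 5.25 in cortex, and the young pools 5.41, 5.51 and 5.41 in hippocampus and 5.25, 5.18 and 5.18 in cortex. The average difference was 0.28 log2 (SE 0.023, 1.22-fold, limma adjusted p = 1.3e-09 with no filter), and by group it ran from 0.24 in young WT (adjusted p = 0.00042) to 0.31 in old KO (adjusted p = 4.0e-05).

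Folr1, the folate receptor alpha that carries folate into cerebrospinal fluid, showed no regional difference past the threshold. It ranged from 6.15 to 6.48 log2 in hippocampus and from 6.10 to 6.32 in cortex, an average difference of 0.04 log2 (95% interval -0.03 to 0.10, limma adjusted p = 0.387 with no filter). Kcne2, a potassium channel subunit of the apical membrane, ranged from 5.53 to 5.82 in hippocampus and from 5.52 to 5.72 in cortex, a difference of 0.05 log2 (95% interval -0.01 to 0.12, adjusted p = 0.221). Clic6, of the intracellular chloride channel family, ranged from 5.32 to 5.57 in hippocampus and from 5.31 to 5.55 in cortex, a difference of 0.0004 log2 (95% interval -0.06 to 0.06, adjusted p = 0.994). These intervals bound the change in measured signal, which at dim signals can be smaller than the change in RNA.

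**Figure D1:**
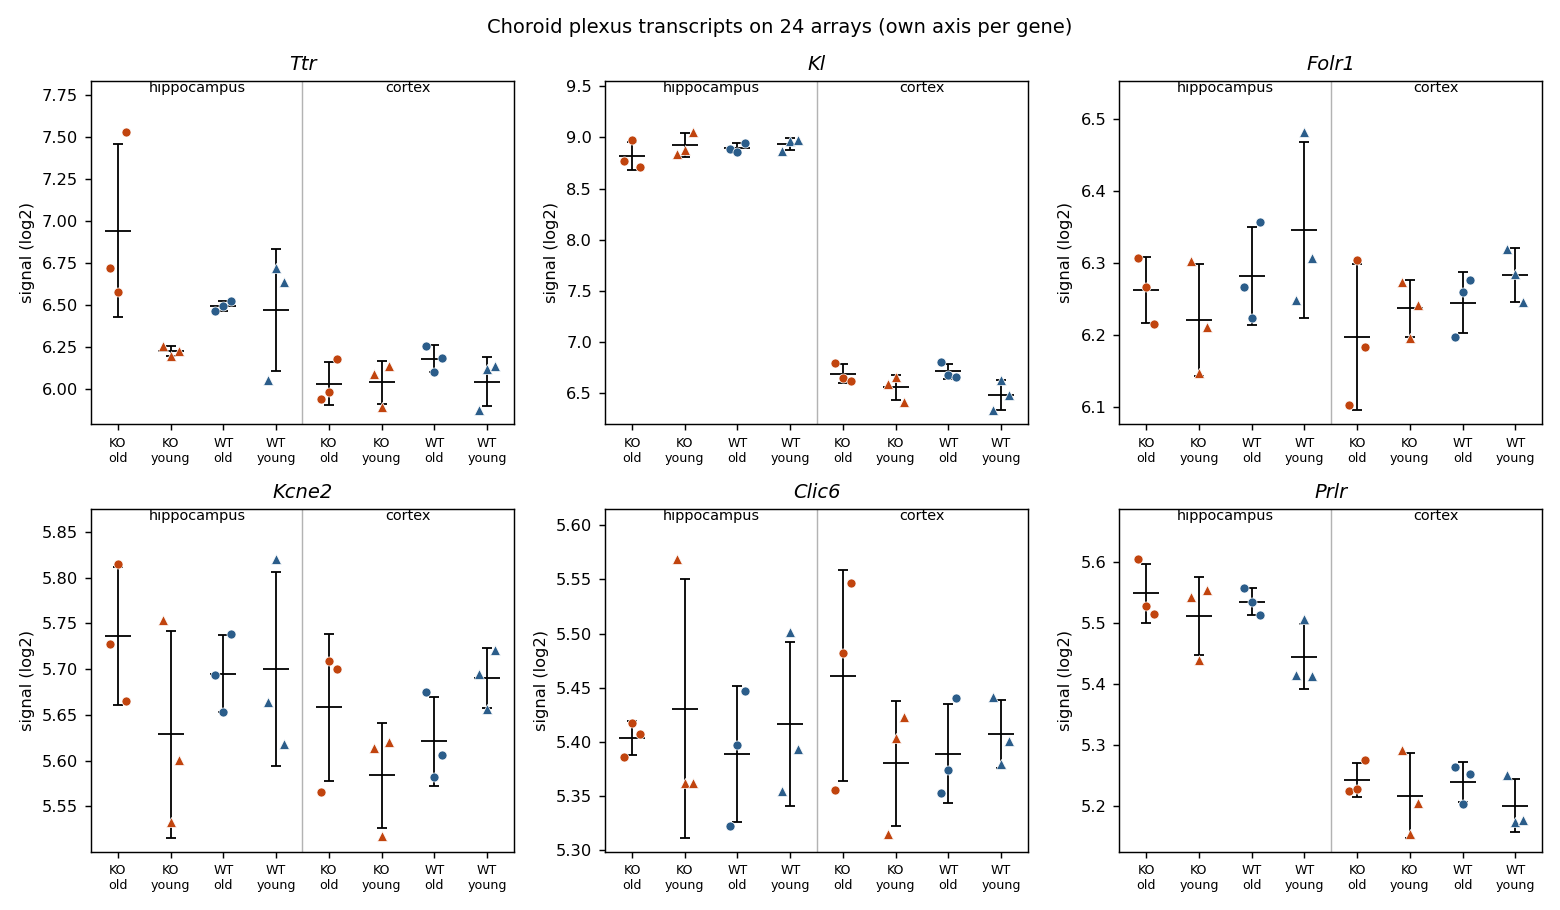
Signal (log2, vertical axis, scaled for each gene) of the 6 choroid plexus members in the 8 groups; circles are old and triangles young pools, red KO and blue WT, and bars give the mean and SD of 3 arrays. Kl and Prlr separate hippocampus from cortex on all arrays, Ttr reaches 7.53 on 1 old KO hippocampus array, and Folr1, Kcne2 and Clic6 overlap between the regions.

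The regional differences were read against a large background. How many of all IDs separate the regions on every array, as Kl and Prlr do, was not counted. In the filtered fit 37% of IDs were called between hippocampus and cortex in young KO, 29.6% in old KO, 39.1% in young WT, 28.1% in old WT and 55.9% on average. Of the 3 tested members, 1 (Kl) was called in each single comparison and 2 (Kl and Alas2) on average. Without the filter, 2 of 8 were called in young KO (background 23%), 3 in old KO (18.1%), 2 in young WT (23.8%), 2 in old WT (17%) and 4 on average (37.3%). The median difference of the 6 choroid plexus members on average was 0.17 log2, with 6 of 6 above 0 and 3 called, where the median over all 23879 IDs was 0.006. Clic6, at 0.0004 log2, was below 0 under other settings, such as quantile normalization (-0.01), which leaves 5 of 6 above 0.

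**Figure D2:**
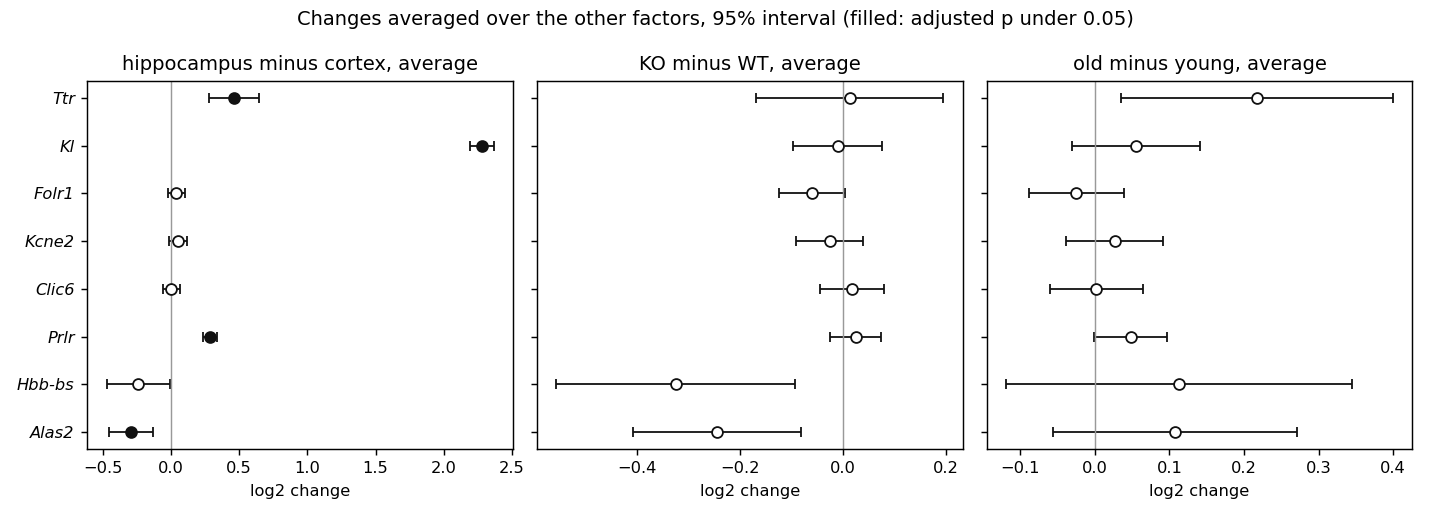
Log2 change (horizontal axes, scaled separately) of the 8 members for hippocampus minus cortex, KO minus WT and old minus young, each averaged over the other factors, with 95% intervals from the unfiltered limma fit. Filled points passed an adjusted p of 0.05; these are Ttr, Kl, Prlr and Alas2 between regions, and 0 members for genotype or age.

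The array with the highest Ttr did not carry high values of the other choroid plexus members. On replicate 3 of old KO hippocampus, Kl was 8.71 log2, the lowest of the 12 hippocampus arrays, and Folr1 was 6.22, rank 10 from the top. Kcne2 was 5.66 and Prlr 5.51, each at rank 7, and Clic6 was 5.41, at rank 5. Folr1, Kcne2, Clic6 and Prlr lay below the filter. Their ranges over all arrays of both regions were only 0.38, 0.30, 0.25 and 0.45 log2, in this order. Kl is also made by some neurons. Whether carried-over choroid plexus would raise the signals of these members was not tested. Across the 12 hippocampus arrays Ttr had Pearson correlations of -0.47 with Kl, 0.16 with Folr1, 0.22 with Kcne2, 0.10 with Clic6 and 0.22 with Prlr, and the adjusted permutation p ranged from 0.415 to 0.853. Spearman's rho in the same order was -0.12, 0.49, 0.47, 0.49 and 0.04, with adjusted p from 0.298 to 0.920. Without the 2 arrays farthest from the median of Ttr, r with Folr1 was 0.69 (permutation p = 0.021, adjusted p = 0.148) and with Kcne2 0.58 (adjusted p = 0.382). In cortex the 5 correlations lay between -0.02 and 0.31, with a smallest adjusted p of 0.771. The 14 relations tested in the 2 regions form 1 family for these adjustments.

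Replicate 1 of young KO hippocampus was compared with its group's other pools for each member. Ttr was 6.25 log2, against 6.19 and 6.23. Kl was 8.83, against 8.88 and 9.06, and Prlr was 5.54, against 5.44 and 5.55. Clic6 was 5.57, against 5.36 and 5.36, and was the highest of the 12 hippocampus arrays, while Kcne2 was 5.75, against 5.53 and 5.60, and Folr1 was 6.30, against 6.15 and 6.21. For Clic6 and Kcne2 this array had the largest deviation from a group mean among the 24 arrays. These amount to 0.21 and 0.19 log2 above the mean of the other pools, at dim signal. This array also deviated most over the tested IDs, and the share of IDs for which it ranked first was not counted.

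Its blood members were not raised. Hbb-bs was 10.15 log2, between 10.02 and 10.36 on the group's other pools, and Alas2 was 6.33, against 6.56 and 6.63, the lowest of the 12 hippocampus arrays. Among the 12 hippocampus arrays, the array that stood apart was at rank 9 for Ttr, rank 10 for Kl and rank 8 for Hbb-bs. It was at rank 1 for Clic6, rank 3 for Kcne2, rank 4 for Prlr and rank 5 for Folr1. The choroid plexus members thus lay in different parts of their ranges on this array. Leaving the array out turned the sign of small differences, among them those of Clic6. These became -0.05 in place of 0.01 log2 for KO minus WT in young hippocampus, 0.04 in place of -0.03 for old minus young in KO hippocampus and -0.02 in place of 0.05 for hippocampus minus cortex in young KO, and -0.02 in place of 0.0004 for hippocampus minus cortex on average. For Kcne2, hippocampus minus cortex in young KO was -0.02 in place of 0.04. For Kl, KO minus WT was 0.03 in place of -0.02 in young hippocampus and 0.0015 in place of -0.0096 on average, and for Alas2 the difference between hippocampus and cortex in the KO age change was -0.08 in place of 0.01. No such difference passed the threshold with or without the array.

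Hbb-bs encodes an adult beta-globin chain and was the brightest of the members. Its paralog Hbb-bt is nearly identical, so the signal may hold transcripts of both. Old KO pools had 10.15, 9.70 and 10.39 log2 in hippocampus and 10.23, 10.02 and 10.66 in cortex. Young KO pools had 10.15, 10.02 and 10.36 in hippocampus and 10.21, 10.33 and 10.66 in cortex. In WT, the old pools had 10.54, 10.11 and 11.15 in hippocampus and 10.74, 10.54 and 11.27 in cortex, and the young pools 10.20, 10.22 and 10.40 in hippocampus and 10.55, 10.65 and 10.42 in cortex. Replicate 3 of old WT was the highest array of its region in both regions, 0.82 log2 above the mean of its group's other pools in hippocampus and 0.63 in cortex.

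Alas2 encodes the erythroid form of 5-aminolevulinate synthase, the first enzyme of heme synthesis. Old KO pools had 6.64, 6.39 and 6.81 log2 in hippocampus and 6.97, 6.81 and 7.11 in cortex. Young KO pools had 6.33, 6.56 and 6.63 in hippocampus and 6.83, 6.90 and 6.88 in cortex. In WT, the old pools had 6.64, 6.78 and 7.41 in hippocampus and 7.05, 6.91 and 7.45 in cortex, and the young pools 6.70, 6.89 and 6.78 in hippocampus and 6.95, 7.22 and 7.03 in cortex. Replicate 3 of old WT was again the highest array in each region.

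**Figure D3:**
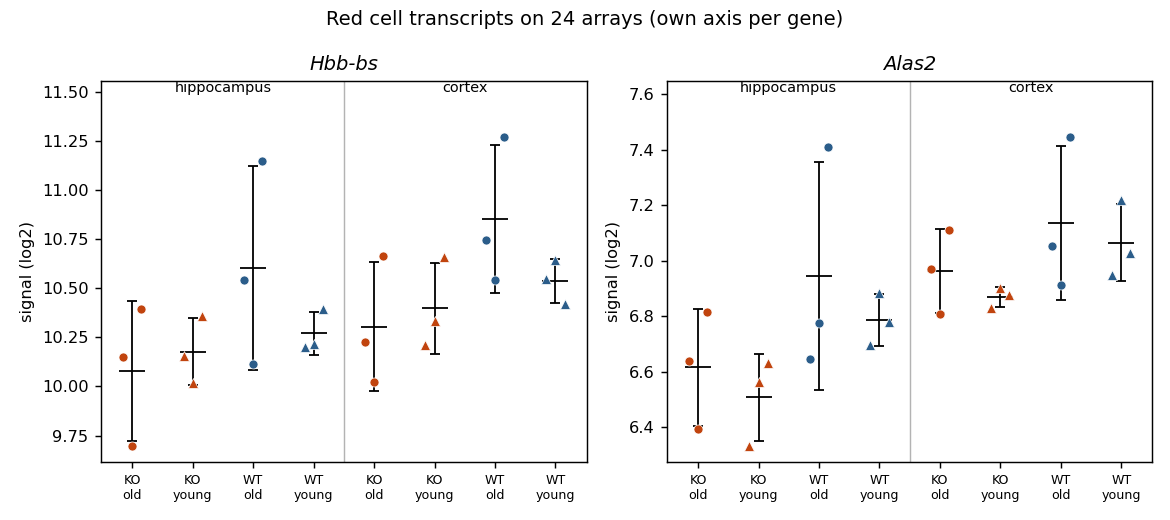
Signal (log2, vertical axis, scaled for each gene) of Hbb-bs and Alas2 in the 8 groups; circles are old and triangles young pools, red KO and blue WT, and bars give the mean and SD of 3 arrays. In hippocampus and in cortex, 1 old WT array lies above all others for both genes.

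Both red cell transcripts were lower in hippocampus than in cortex on average, and Alas2 passed the threshold. Alas2 fell by 0.30 log2 (SE 0.078, 1.23-fold lower, limma adjusted p = 0.0029), with 6.71 ± 0.27 log2 in hippocampus and 7.01 ± 0.18 in cortex (SD, n = 12 each). Hbb-bs differed by -0.24 log2 (SE 0.11, limma adjusted p = 0.071), with 10.28 ± 0.35 in hippocampus and 10.52 ± 0.32 in cortex (SD, n = 12 each). The fit treats the pools of both regions as independent, and the labels do not say whether they share mice. Deviations of same-numbered pools correlated between the regions, with r = 0.87 for Hbb-bs and 0.89 for Alas2. The SEs of these regional differences may therefore be too large. In the 4 single groups the differences of Alas2 ran from -0.36 to -0.19 and those of Hbb-bs from -0.27 to -0.22, and neither gene passed the threshold in any of them. Hbb-bs did pass on average without 1 of 4 arrays: replicate 3 of old KO hippocampus (-0.28 log2, limma adjusted p = 0.039), replicate 2 of old KO cortex (-0.28, adjusted p = 0.044), replicate 2 of old WT cortex (-0.28, adjusted p = 0.041) or replicate 3 of old WT hippocampus (-0.31, adjusted p = 0.012). Without the last of these Alas2 also passed in young KO (-0.36, adjusted p = 0.024), old KO (-0.35, adjusted p = 0.036) and old WT (-0.43, adjusted p = 0.025). Other arrays moved the single-group values towards 0. Without replicate 3 of old WT cortex the old WT difference of Alas2 was -0.04 (limma adjusted p = 0.916). For Hbb-bs it was -0.0063 in old WT without replicate 2 of old WT hippocampus, -0.03 in old KO without replicate 2 of old KO hippocampus, and -0.09 in young KO without replicate 3 of young KO cortex.

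On the same arrays Hbb-bs and Alas2 varied together. Pearson's r was 0.82 in the 12 hippocampus arrays (permutation p = 0.0055, adjusted p = 0.038) and 0.84 in the 12 cortex arrays (permutation p = 0.0011, adjusted p = 0.016), and Spearman's rho was 0.64 (adjusted p = 0.138) and 0.73 (adjusted p = 0.068). Without the 2 arrays farthest from the median of Hbb-bs, r was 0.27 in hippocampus (permutation p = 0.456). In cortex it was 0.54 (permutation p = 0.111). A good part of r thus came with those arrays, but leaving them out also narrows the range of Hbb-bs, which can itself lower r. Among all tested IDs, Alas2 was at rank 3 in r with Hbb-bs over the 12 arrays of each region. Taken as deviations from the group means, r was 0.80 in hippocampus (exact permutation p = 0.065) and 0.85 in cortex (exact permutation p = 0.0062, adjusted p = 0.086).

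**Figure D4:**
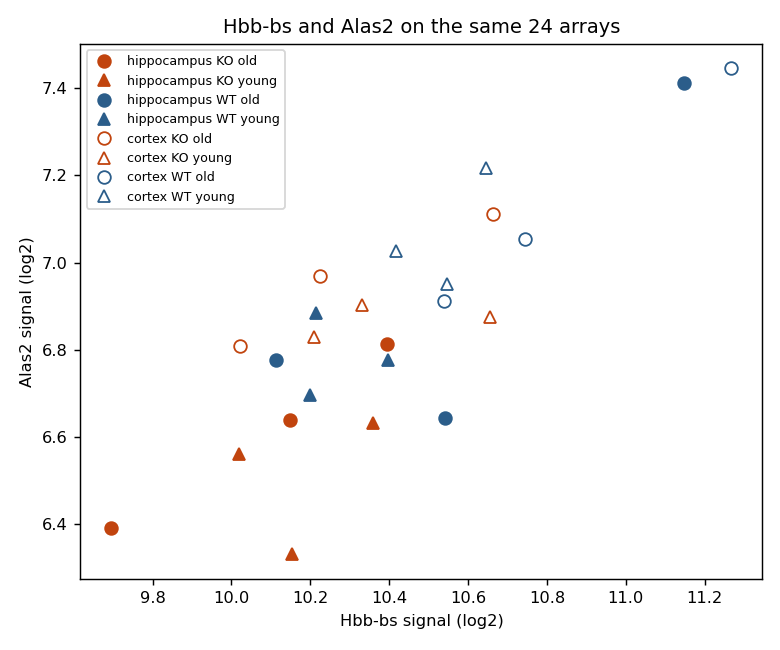
Alas2 signal (log2, vertical axis) against Hbb-bs signal (log2, horizontal axis) on each of the 24 arrays; filled symbols are hippocampus and open ones cortex, circles old and triangles young, red KO and blue WT. The 2 arrays at the upper right, with Alas2 at 7.41 and 7.45, are replicate 3 of old WT hippocampus and of old WT cortex.

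Ttr and Hbb-bs, the leading markers of the choroid plexus and blood lists, had no correlation past the threshold in hippocampus. There r was 0.12 (permutation p = 0.652, adjusted p = 0.830). As deviations from the group means, hippocampus had r = 0.44 (exact permutation p = 0.137, adjusted p = 0.478) and rho = 0.59 (exact permutation p = 0.043, adjusted p = 0.245). In cortex r was 0.58 (permutation p = 0.042, adjusted p = 0.198) and rho 0.73 (adjusted p = 0.068), over a Ttr range of 5.87 to 6.26 log2. Without the 2 cortex arrays farthest from the median of Ttr, r was 0.74 (permutation p = 0.016, adjusted p = 0.148) and rho 0.88 (adjusted p = 0.024), and as deviations from the group means r was 0.40 (exact permutation p = 0.218). Among the other tested IDs, the 5 most like Hbb-bs had r from 0.80 to 0.87 over the 12 hippocampus arrays, led by ENSMUSG00000025935 and ENSMUSG00000035305, and from 0.82 to 0.88 over the 12 cortex arrays, led by ENSMUSG00000073940 and ENSMUSG00000056758. The lists shared 1 ID, ENSMUSG00000073940, whose level ran from 5.81 to 8.49 log2 in hippocampus and from 6.49 to 8.54 in cortex. Those most like Ttr had r from 0.76 to 0.81 in hippocampus, led by ENSMUSG00000039298 and ENSMUSG00000028082, and from 0.89 to 0.93 in cortex, led by ENSMUSG00000037621 and ENSMUSG00000087645, and the lists shared 0 IDs.

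The comparison of KO with WT asks whether loss of ApoD went with more or less choroid plexus or blood signal. No member was called in any of the 4 groups or on average. The count was 0 of the 3 tested, where 0.00698% of all tested IDs were called in each group and 0.014% on average, and with no filter 0 of 8, where 0.00419% were called in each group and 0.00838% on average. Hbb-bs was 10.24 ± 0.27 log2 on KO arrays and 10.56 ± 0.35 on WT arrays (SD, n = 12 each). The difference was -0.32 (95% interval -0.56 to -0.09, unadjusted p = 0.0081, limma adjusted p = 0.818). Alas2 was 6.74 ± 0.23 on KO arrays and 6.98 ± 0.26 on WT arrays, a difference of -0.24 (95% interval -0.41 to -0.08, unadjusted p = 0.0053, limma adjusted p = 0.818). The KO and WT arrays overlapped for both genes. The fit treats hippocampus and cortex pools as independent, and the labels do not say whether they share mice. Deviations of same-numbered pools correlated between the regions, with r = 0.87 for Hbb-bs and 0.89 for Alas2. The intervals of these averages may therefore be too narrow and their unadjusted p-values too small.

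In old mice the Hbb-bs difference between KO and WT was -0.52 log2 in hippocampus (unadjusted p = 0.029, limma adjusted p = 0.999) and -0.55 in cortex (unadjusted p = 0.022, adjusted p = 0.833), and in young mice -0.09 and -0.14. For Alas2 it was -0.33 in old hippocampus (unadjusted p = 0.048, limma adjusted p = 0.999) and -0.17 in old cortex, beside -0.28 in young hippocampus and -0.20 in young cortex. The difference between KO and WT in the age change was -0.43 in hippocampus and -0.41 in cortex for Hbb-bs, and -0.05 and 0.02 for Alas2, with limma adjusted p of at least 0.932 in all 4. Without replicate 3 of old WT hippocampus the old hippocampus difference was -0.25 for Hbb-bs and -0.09 for Alas2, and without replicate 3 of old WT cortex the old cortex difference was -0.34 for Hbb-bs and -0.02 for Alas2. Averaged over groups, the Hbb-bs difference without replicate 3 of old WT hippocampus was -0.26 and the Alas2 difference -0.19, and without any 1 array they stayed between -0.39 and -0.26 and between -0.28 and -0.19.

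The choroid plexus members showed small differences between KO and WT. The median over the 6 was 0.002 log2 on average, with 3 above and 3 below 0, beside -0.002 over all 23879 IDs. Ttr differed by 0.45 log2 between KO and WT in old hippocampus (unadjusted p = 0.018, limma adjusted p = 1.000 with no filter), which was 0.16 without replicate 3 of old KO hippocampus. In young hippocampus it differed by -0.25 (limma adjusted p = 0.874), which was -0.45 without replicate 1 of young WT hippocampus. The Kl difference on average was -0.01 log2 (95% interval -0.10 to 0.08).

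The comparison of old with young mice called 0 of the 3 tested members in each group and on average. The background was 5.38% in KO hippocampus, 4.98% in WT hippocampus, 1.67% in KO cortex, 1.03% in WT cortex and 12.7% on average. With no filter 1 of the 8 members was called, Ttr in KO hippocampus, where the background was 2.41%, beside 2.15% in WT hippocampus, 0.888% in KO cortex, 0.574% in WT cortex and 6.98% on average. It rose by 0.72 log2 with age (SE 0.18, 1.64-fold, limma adjusted p = 0.032), to 6.94 ± 0.51 log2 in old KO hippocampus, against 6.22 ± 0.03 in young KO hippocampus (SD, n = 3 each). The 3 old pools lay above the 3 young pools, and how many other IDs do so was not counted. The call was lost without any 1 of 4 arrays, while the size changed mainly with 1 of them. Without replicate 3 of old KO hippocampus the change was 0.42 log2 (limma adjusted p = 0.125), the smallest of these values. It was 0.73 log2 without young KO replicate 1 (adjusted p = 0.069), 0.70 without replicate 2 (adjusted p = 0.061), 0.72 without replicate 3 (adjusted p = 0.061), and 0.72 among hippocampus arrays alone (adjusted p = 0.136).

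In WT hippocampus the age change of Ttr was 0.02 log2 (limma adjusted p = 0.972). The difference between genotypes in the age change was 0.70 log2 (SE 0.25, unadjusted p = 0.011, limma adjusted p = 1.000), and that between hippocampus and cortex in KO was 0.72 (adjusted p = 0.242), so neither was past the threshold. For Kl, old minus young was 0.13 log2 in KO cortex (limma adjusted p = 0.495) and 0.23 in WT cortex (unadjusted p = 0.011, adjusted p = 0.255), and -0.10 in KO hippocampus and -0.04 in WT hippocampus. For Hbb-bs it was -0.10 in both KO regions, 0.33 in WT hippocampus (adjusted p = 0.409) and 0.31 in WT cortex (adjusted p = 0.657). The KO values turned positive without replicate 2 of old KO, at 0.09 in hippocampus and 0.05 in cortex. For Alas2 old minus young was 0.11 in KO hippocampus, 0.09 in KO cortex, 0.16 in WT hippocampus and 0.07 in WT cortex, with limma adjusted p from 0.595 to 0.916. Without replicate 3 of old WT in each region in turn, the WT values were 0.06 in hippocampus and 0.11 in cortex for Hbb-bs, and -0.08 in both regions for Alas2. Without replicate 1 of young KO hippocampus the KO hippocampus value of Alas2 was 0.02. In the 4 interaction comparisons 0 of the 3 tested members were called, where the background was 0% and 0% for the difference of age changes between KO and WT in hippocampus and cortex, 0.181% for that between regions in KO and 2.04% for that in WT. With no filter 0 of 8 were called, where the last 2 shares were 0.0796% in KO and 0.67% in WT.

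The mean of the 6 choroid plexus members did not overlap between the regions, at 6.26 to 6.51 log2 on hippocampus arrays and 5.80 to 5.92 on cortex arrays. This separation rests on Kl. Without Kl the regions overlapped, since the lowest young KO hippocampus array was at 5.73 and the highest old KO cortex array at 5.78. The mean of the 5 choroid plexus members other than Kl ran in hippocampus from 5.92 to 6.07 log2 in old KO, 5.73 to 5.88 in young KO, 5.86 to 5.92 in old WT and 5.75 to 6.01 in young WT, and in cortex from 5.64 to 5.78 in old KO, 5.63 to 5.72 in young KO, 5.70 to 5.75 in old WT and 5.72 to 5.74 in young WT. The mean of the 2 blood members ran in hippocampus from 8.04 to 8.60 in old KO, 8.24 to 8.50 in young KO, 8.44 to 9.28 in old WT and 8.45 to 8.59 in young WT. In cortex it ran from 8.41 to 8.89 in old KO, 8.52 to 8.77 in young KO, 8.73 to 9.36 in old WT and 8.72 to 8.93 in young WT. The part of choroid plexus or blood in the age and genotype changes of other IDs was not tested.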

How the data were processed

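Total RNA was hybridised to Affymetrix oligonucleotide arrays. The deposited table holds 1 log2 signal per Ensembl gene ID and array, from 3.99 to 14.4, and none was missing. The programs named in the submitters' processing notes are MAS5 and RMA, without their roles. Which array model and annotation were used, and how probes were joined into IDs, is not given in the sources used here, and the log2 unit was inferred from the values. Signals carry no read depth, so the number of arrays limits the precision.

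The members and lists were chosen with earlier results of these data known. The 10 other marker lists planned could not be matched to IDs, and of 18 planned correlations the 4 with Hba-a1 or Hba-a2 were not run. IDs with a mean above the 40th percentile were tested with limma 3.58.1 in R 4.3.3 (8 group means, eBayes, Benjamini-Hochberg within each of 19 comparisons, called under 0.05), and the 5 dim members in the same fit with no filter. Named were all members, the check ID and, per region, the IDs most like Ttr and Hbb-bs, the first 2 of 5 because none could be given a symbol. ENSMUSG00000073940 was singled out after its values were seen. Permutation p-values are two-sided, from 100000 resamples, or from all 1296 reorderings within groups for deviations. The limma procedure was tested on simulated data. Alternatives were other filters, scalings, moderation, array weights, single-region fits, replicate blocks and leaving out each array.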

Additional observations from a re-analysis of the deposited data

How the results depend on the processing

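In all, 152 member changes were recomputed under 9 alternatives, where each applied, and in 24 fits without 1 array, and 6 changed their side of the threshold, while 0 called changes turned their sign. The 5 calls of Kl between regions, the 5 of Prlr and that of Alas2 on average held wherever the gene was tested. Without the filter the count of called members was 1 for old minus young in KO hippocampus (0 with the filter), and between regions 2 in young KO, 3 in old KO, 2 in young WT, 2 in old WT (1 each with it) and 4 on average (2). With a filter at the 60th percentile, which leaves Hbb-bs alone, it was 0 in all 5. Between regions it ranged from 1 to 2 in young KO, in old KO and in old WT when each array was left out, reaching 2 without replicate 3 of old WT hippocampus. Of 14 correlations between members, 2 passed by Pearson's r, against 0 without the 2 farthest arrays, 0 as deviations from group means and 1 after quantile normalization. By Spearman's rho 0 passed, against 1 without the 2 farthest arrays (Ttr with Hbb-bs in cortex). The age change of Ttr in KO hippocampus lost its call with array weights (0.64 log2, limma adjusted p = 0.066) and in the fits named above.

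Same-numbered pools did not deviate together over the tested IDs. Across regions their correlations ran from -0.25 to 0.29, with 4 of 12 above 0.1 and 4 of 12 best with their own number; across genotypes 2 of 12 and across ages 4 of 12 were above 0.1. With the replicate number as a fixed block, 2 members in place of 1 were called between regions in young KO (Alas2, -0.36 log2, limma adjusted p = 0.037), and Hbb-bs passed on average (-0.24 log2, adjusted p = 0.010). As a random block, with a consensus correlation of 0.0067, it changed no call. That correlation is 1 value for all IDs and is close to 0, so this fit does not test pairing for single genes.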

Other observations

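The red cell transcripts had similar deviations in hippocampus and cortex pools of the same replicate number, a pattern looked for after the values were seen. The labels do not say whether pools of the same number came from the same mice. Over the 12 pairs, hippocampus was lower than the cortex pool of the same number in 12 of 12 for Hbb-bs and in 12 of 12 for Alas2, with mean differences of -0.24 ± 0.14 and -0.30 ± 0.13 log2 (SD, n = 12 pairs). Deviations from the group means correlated across regions with r = 0.87 for Hbb-bs (exact permutation p = 0.019, adjusted p = 0.077, rho = 0.70, adjusted p = 0.183) and r = 0.89 for Alas2 (exact permutation p = 0.0085, adjusted p = 0.068, rho = 0.87, adjusted p = 0.037). Without the 2 pairs farthest from the median in cortex, r was 0.72 for Hbb-bs and 0.82 for Alas2. For Ttr r was 0.75 (exact permutation p = 0.054, adjusted p = 0.144, rho = 0.77, adjusted p = 0.170), and for Kl, Folr1, Kcne2, Clic6 and Prlr it ran from -0.26 to 0.13. The adjustment covers the 8 members, and numbers were permuted within each genotype and age.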
